A study of Mus musculus with 9 samples.

Results

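The genes described here are those by which a cell takes up glucose, breaks it down to pyruvate, exchanges lactate with its surroundings and passes pyruvate on to the mitochondrion. They were chosen by symbol from the rows of the deposited count table and comprised 38 symbols on 39 of 54532 rows, since the symbol Aldoa stood on 2 gene identifiers. Hearts of male C57BL/6J mice, wild type and 8 to 10 weeks old, were sequenced as tissue in 3 groups of 3 animals each. Mice of the MIRI group (myocardial ischemia/reperfusion injury) had the left anterior descending coronary artery tied for 30 min and released for 24 h, and received saline. Mice of the GXNI group had the same operation and received Guanxinning injection, a preparation of Danshen and Chuanxiong, at 9 mL/kg. Sham mice had the chest opened and the thread passed under the artery without being tied. All injections went into the tail vein within 10 min of ischemia. Each library therefore stands for 1 animal, and the spread given is that between animals.

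Glycolysis splits glucose into pyruvate in the cytosol, and many of its steps are carried out by isoenzymes made from separate genes. The adult heart burns mainly fatty acids and lactate, and its muscle cells use the muscle or heart form of most glycolytic enzymes, whereas leukocytes, endothelial cells and fibroblasts use the widely expressed form. Pyruvate either becomes lactate through lactate dehydrogenase or enters the mitochondrion, where the pyruvate dehydrogenase (PDH) complex turns it into acetyl-CoA. PDH kinases switch this complex off by phosphorylation, and PDH phosphatases switch it on again.

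The libraries held between 17119454 and 22811295 counted reads, of which 23.0% to 29.8% were from mitochondrially encoded genes, and levels are given as CPM (counts scaled to the library total) after TMM scaling. The labels name the cell type as cardiomyocytes. All 11 cardiomyocyte marker genes were detected in every library, but markers of neutrophils, macrophages, fibroblasts and endothelial cells were detected as well, and the RNA came from whole heart tissue. The summed level of the 11 cardiomyocyte markers lay between 52117 and 54628 CPM in sham, at 36445, 55729 and 39993 CPM in MIRI 1 to 3, and at 46894, 40082 and 38210 CPM in GXNI 1 to 3. The summed level of 12 neutrophil markers lay between 158 and 212 CPM in sham, at 1186, 236 and 904 CPM in MIRI 1 to 3, and at 634, 678 and 907 CPM in GXNI 1 to 3. None of these 12 was at 0 in any library. Lcn2, which cells other than neutrophils also make, held 125 to 150 CPM of these sums in sham. It held 391, 206 and 172 CPM in MIRI 1 to 3 and 578, 438 and 131 CPM in GXNI 1 to 3. Lcn2 was thus the larger part of the sum in sham, MIRI 2, GXNI 1 and GXNI 2. In bulk tissue, fewer cells of a type and less RNA per cell cannot be told apart.

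The library labelled MIRI 2 stood apart from the others of its group, and the GXNI libraries did not lie together. Over 15207 genes, no MIRI or GXNI library was most similar to another of its own group. Similarity was judged by Spearman's rho across genes, which are not independent replicates. The nearest library was GXNI 1 for MIRI 2 (0.982), and GXNI 3 for MIRI 1 (0.986) and MIRI 3 (0.987). It was sham 1 for GXNI 1 (0.984), MIRI 1 for GXNI 2 (0.980) and MIRI 3 for GXNI 3 (0.987). On the leading principal component, which held 64.7% of the variance, the sham libraries lay between -59.8 and -52.3, MIRI 2 at -44.4 and GXNI 1 at -43.5, while GXNI 2 lay at 18.7 and MIRI 1, MIRI 3 and GXNI 3 at 61.6, 83.2 and 94.4. The neutrophil marker Cxcr2 stood at 57.8, 0.831 and 53.7 CPM in MIRI 1 to 3, and at 2.60, 16.3 and 74.0 CPM in GXNI 1 to 3. MIRI 2 thus held the lowest and GXNI 3 the highest of these 6 values. The study reported this gene as lowered by GXNI, whereas the groups as labelled overlapped here. Whether the labels of MIRI 2 and GXNI 3 were exchanged was not tested. The groups below follow the labels, and every value of MIRI and GXNI as groups rests on them. Results that depend on MIRI 2 or GXNI 3 are given with and without these libraries. A comparison of all 6 libraries labelled MIRI or GXNI against sham, called ischemia-reperfusion below, does not depend on which of the 6 had the drug.

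**Figure D1:**
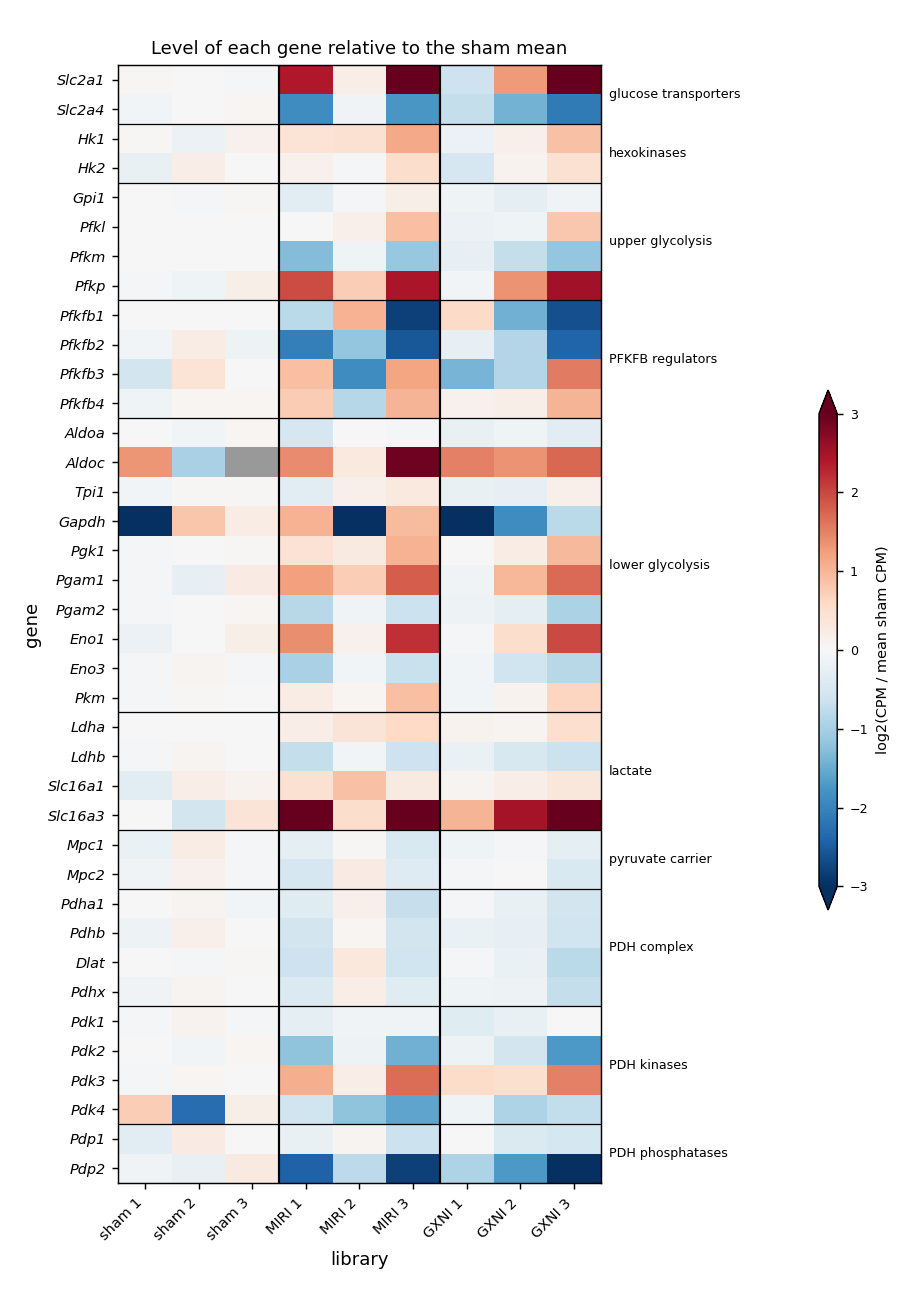
Colour gives log2 of the CPM of each gene (rows, grouped by role) over its mean in the sham libraries, for each of the 9 libraries (columns). Colours saturate beyond 3 in either direction and grey marks a count of 0. The columns of MIRI 1, MIRI 3 and GXNI 3 look alike, GXNI 2 is paler, and MIRI 2 and GXNI 1 lie nearest to sham.

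Against sham, 1 to 4 members were called higher and 1 lower, with Slc16a3, the lactate exporter, among the higher ones each time, and none passed adjustment for the number of genes tested. A call required a 1.5-fold change with p (not adjusted) no higher than 0.01 by the quasi-likelihood test of edgeR. Adjusted values are those of Benjamini and Hochberg over all genes tested. In MIRI against sham, 4 of the 37 members tested were called higher (Slc2a1, Pfkp, Pgam1 and Slc16a3) and 1 was called lower (Pfkfb2), where 6.15% of all genes tested were called higher and 2.82% lower. In GXNI against sham, 1 of 37 was called higher (Slc16a3) and 1 lower (Slc2a4), against 2.67% and 1.54% of all genes. In ischemia-reperfusion against sham, 2 of 38 were called higher (Pfkp and Slc16a3) and 1 lower (Pdp2), against 5.52% and 2.85%. These 3 comparisons share the sham libraries. The median log2 change of the members was -0.13, -0.16 and -0.17 in these comparisons, where that of all genes was -0.0015, 0.011 and 0.0076. No member reached an adjusted value of 0.05 in edgeR. The smallest adjusted values were 0.0666, 0.219 and 0.0878, and 15, 9 and 15 members had an unadjusted p under 0.05, as had 28.3%, 19.8% and 29.5% of all genes. DESeq2, which tested 39 rows of the members, called 7 higher and 2 lower when MIRI was set against sham, where it called 5.34% and 2.72% of all genes. By that tool 7 members passed an adjusted threshold of 0.05, as did 12.7% of the genes with an adjusted value.

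The outcome depended on single libraries. When MIRI 2 was left out of the MIRI group, 10 of 38 members rose and 9 fell against sham, 26 passed an adjusted threshold of 0.05 in edgeR, and of all genes 16.9% were called higher, 13.3% were called lower and 43.1% passed the adjusted threshold. MIRI 2 had been singled out by its expression, so that values without it describe the remaining libraries and are no independent test. The 10 were Slc2a1, Hk1, Pfkp, Pfkfb3, Pfkfb4, Pgk1, Pgam1, Eno1, Slc16a3 and Pdk3, and the 9 were Slc2a4, Pfkm, Pfkfb2, Pgam2, Eno3, Ldhb, Dlat, Pdk2 and Pdp2. Leaving out any 1 of the other 5 libraries of that comparison left 0 to 2 members called higher and 1 or 2 called lower, with 0 higher without sham 1 and without sham 2. Of all genes, 340 to 475 were then called higher and 174 to 228 lower, of 14850 to 15203 tested. In GXNI against sham, 5 of 37 were called higher and 5 lower without GXNI 1, where 10.7% and 7.08% of all genes were, and 0 higher without any 1 of the sham libraries. In ischemia-reperfusion against sham, 4 of 38 were called higher and 3 lower without either GXNI 1 (9.57% and 5.7% of all genes) or MIRI 2 (9.67% and 4.76%), and 0 higher without MIRI 1, MIRI 3, GXNI 3, sham 2 or sham 3.

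**Figure D2:**
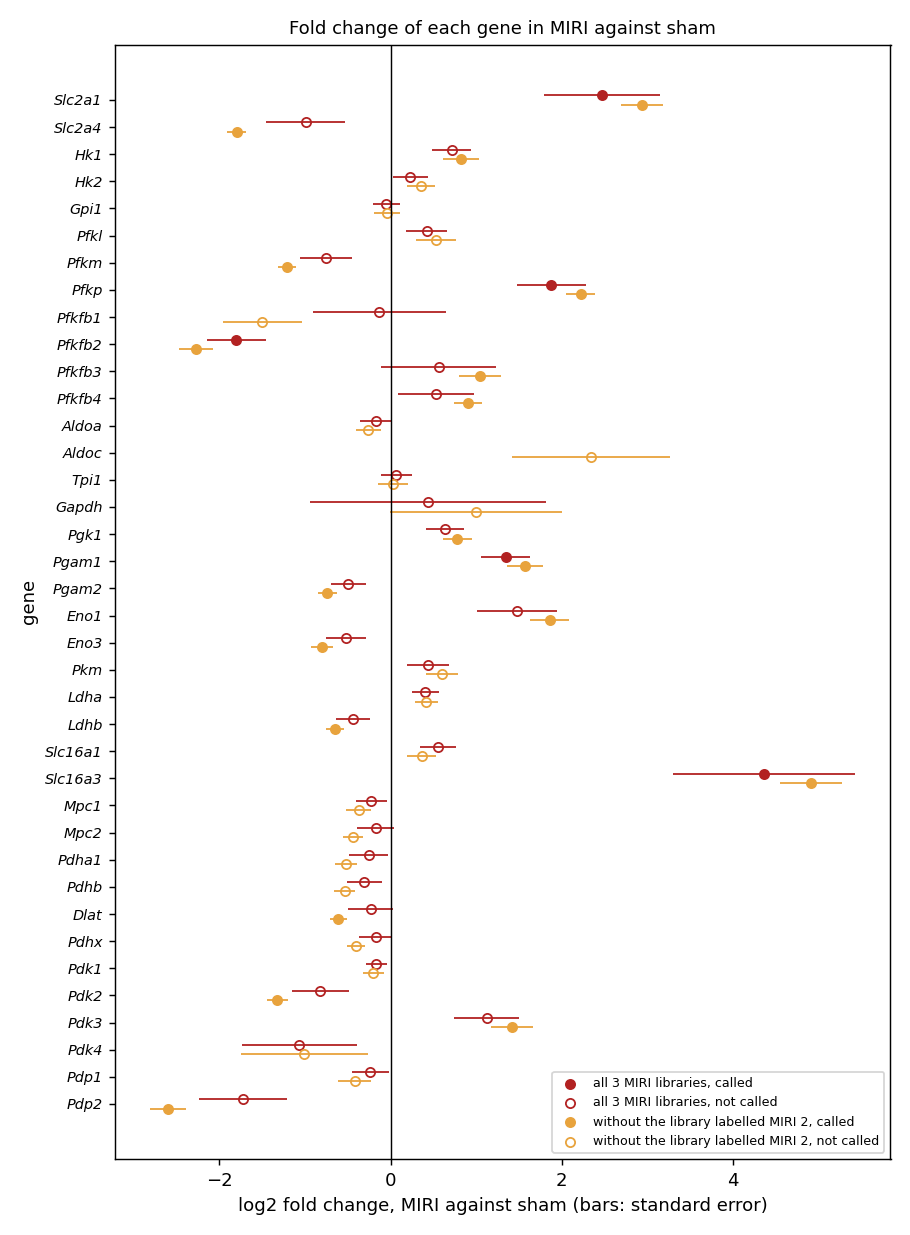
Points give the log2 fold change of each gene in MIRI against sham and lines its standard error, with all 3 MIRI libraries (red) and without MIRI 2 (orange). Filled points were called. With all 3 libraries 5 points are filled, and without MIRI 2, 19 are.

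Some members kept apart from sham in every ischemia-reperfusion library. Ldha, Slc16a3 and Pdk3 were above the highest sham library in all 6, where 8.4% of all genes tested were. Slc2a4, Pfkm, Pfkfb2, Pgam2, Eno3, Ldhb, Pdk2 and Pdp2 were below the lowest sham library in all 6, where 8.46% of all genes were. That is 3 and 8 of 38 members. Counted by library, MIRI 1 had 15 members above the sham range and 19 below it, MIRI 2 had 17 and 12, MIRI 3 had 19 and 17, GXNI 1 had 6 and 21, GXNI 2 had 13 and 20, and GXNI 3 had 17 and 18. Of all genes, 31.4% to 41.3% of those tested lay above and 30.5% to 42.8% below, depending on the library. The library with the fewest members above, GXNI 1, thus had 15.8% of them above and 55.3% below, where all genes split 31.4% and 30.5% in it.

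**Figure D3:**
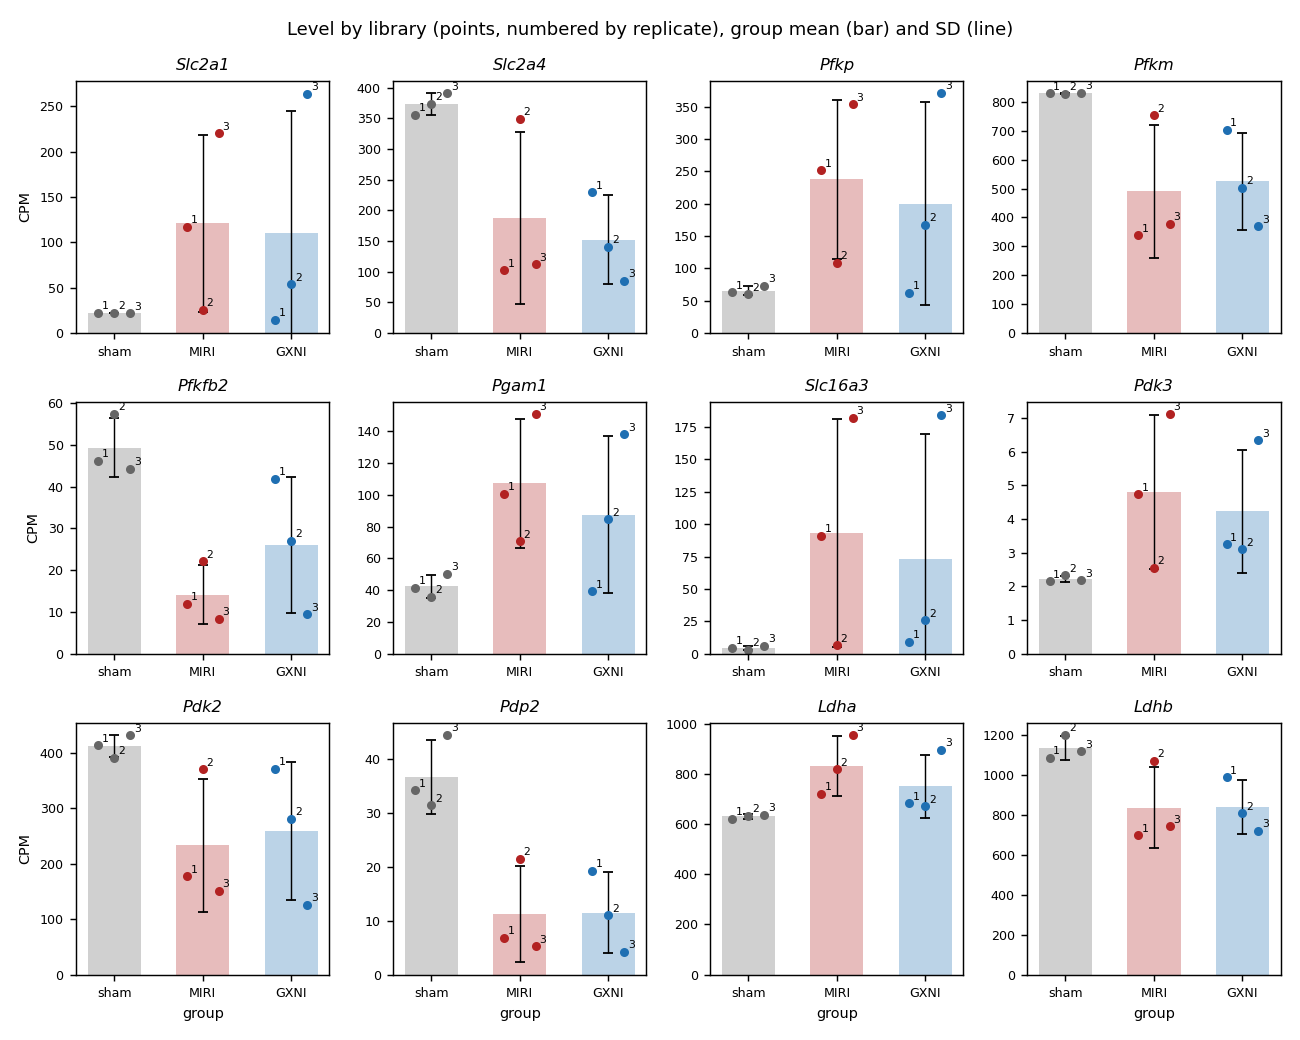
Each panel shows the CPM of 1 gene in the sham (grey), MIRI (red) and GXNI (blue) libraries, as points numbered by replicate, with the group mean (bar) and SD over 3 animals (line). MIRI 2 and GXNI 1 lie on the sham side of their groups in most panels, while Pfkfb2, Pdp2 and Pgam1 are outside the sham range in MIRI 2 too.

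The stretches just before the transcription start of called members are shown so that their sequences can be set beside the values. They are from RefSeq on build GRCm38.p6, read 5′ to 3′ on the strand of the gene, for the called members with a single start in that table. Each begins 250 bases before the RefSeq start and ends there or before the first base within it that GENCODE M21 annotates as exon. The stretch of Slc16a3 lies inside the gene as GENCODE annotates it, which begins further upstream at chr11:120948480. Capitals mark the letters ACGTG, a form of the core of the element bound by hypoxia-inducible factors, searched on both strands (CACGT on the other). These letters overlap the E-box CACGTG, which holds both. The form GCGTG of this core was not searched and is not marked. Slc2a1 lies at chr4:119108495-119108710 (forward strand), Pfkp at chr13:6648778-6649021 (reverse strand), Pgam1 at chr19:41911621-41911870 (forward strand), Slc16a3 at chr11:120948817-120949052 (forward strand) and Pdp2 at chr8:104591222-104591450 (forward strand).
Slc2a1: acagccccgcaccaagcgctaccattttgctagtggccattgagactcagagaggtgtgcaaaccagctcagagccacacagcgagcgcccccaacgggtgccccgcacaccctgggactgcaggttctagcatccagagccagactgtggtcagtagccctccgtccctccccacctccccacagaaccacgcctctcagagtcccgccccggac
Pfkp: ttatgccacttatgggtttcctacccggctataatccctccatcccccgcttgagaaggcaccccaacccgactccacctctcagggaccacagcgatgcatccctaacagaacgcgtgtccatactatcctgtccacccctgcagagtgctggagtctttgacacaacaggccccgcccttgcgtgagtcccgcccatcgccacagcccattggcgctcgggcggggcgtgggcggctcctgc
Pgam1: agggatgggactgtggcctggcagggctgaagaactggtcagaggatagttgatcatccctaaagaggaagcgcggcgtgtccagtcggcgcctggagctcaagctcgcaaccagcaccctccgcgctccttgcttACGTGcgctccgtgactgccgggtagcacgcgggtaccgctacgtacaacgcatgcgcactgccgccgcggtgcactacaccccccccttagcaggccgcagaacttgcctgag
Slc16a3: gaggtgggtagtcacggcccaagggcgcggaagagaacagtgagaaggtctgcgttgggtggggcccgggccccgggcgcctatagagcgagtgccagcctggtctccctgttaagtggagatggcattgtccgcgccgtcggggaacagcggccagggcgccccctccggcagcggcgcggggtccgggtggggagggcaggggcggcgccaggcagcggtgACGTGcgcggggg
Pdp2: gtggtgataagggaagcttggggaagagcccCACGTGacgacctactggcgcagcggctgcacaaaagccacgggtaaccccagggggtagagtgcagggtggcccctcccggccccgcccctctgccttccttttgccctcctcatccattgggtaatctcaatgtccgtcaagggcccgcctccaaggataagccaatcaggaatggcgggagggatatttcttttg

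The stretch before Pgam1 held 1 match, that before Slc16a3 held 1, and that before Pdp2 held an E-box, which counts as 2. The stretches before Slc2a1 and Pfkp held no ACGTG on either strand, while GCGTG was not searched. The 250 bases before the RefSeq start of Slc2a1 held 1 ACGTG match that reaches into the exon annotated by GENCODE. Of the 32851 promoters in the RefSeq table, 16.6% held the letters ACGTG on either strand in their 250 bases. RefSeq promoters were found for 36 of the 38 members, with 56 starts, of which 20 (35.7%) held them. A match of this length is a description of the sequence and not a binding site.

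Glucose enters the cell through facilitative transporters, of which GLUT1, encoded by Slc2a1, is widespread and GLUT4, encoded by Slc2a4, is the insulin-responsive form of muscle and fat. Slc2a1 stood at 22.5, 22.1 and 21.5 CPM in the sham libraries, at 117, 25.3 and 220 CPM in MIRI 1 to 3, and at 14.4, 53.7 and 264 CPM in GXNI 1 to 3. It was 5.52-fold higher in MIRI than in sham (log2 change 2.46 ± 0.68 SE, edgeR adjusted p = 0.0981), with MIRI 2 just above the sham range and GXNI 1 below it. Slc2a4 stood at 356, 374 and 391 CPM in sham, at 102, 349 and 112 CPM in MIRI and at 229, 140 and 85.4 CPM in GXNI. It was below sham in every operated library, and 2.45-fold lower in GXNI than in sham (log2 change -1.29 ± 0.33 SE, edgeR adjusted p = 0.219). In MIRI against sham its change of -0.99 ± 0.46 was not called (edgeR adjusted p = 0.206), and without MIRI 2 it was -1.80 ± 0.11. Per kilobase of annotated exon, the level in sham was 107 ± 5.08 CPM (SD, n = 3) for Slc2a4 and 6.28 ± 0.139 CPM (SD, n = 3) for Slc2a1.

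Hexokinases trap glucose by phosphorylating it, Hk1 being the constitutive and Hk2 the insulin-responsive form. Hk1 stood at 182, 158 and 195 CPM in sham, 237, 245 and 392 CPM in MIRI, and 157, 197 and 326 CPM in GXNI. Its change in MIRI against sham was 0.72 ± 0.23 on the log2 scale and was not called (edgeR adjusted p = 0.116). Hk2 stood at 272, 367 and 319 CPM in sham, 351, 305 and 462 CPM in MIRI, and 226, 345 and 439 CPM in GXNI. For Hk1 all 3 MIRI libraries lay above sham while GXNI overlapped it, and for Hk2 both operated groups overlapped sham. The highest levels of both genes were those of MIRI 3 and GXNI 3.

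Phosphofructokinase commits sugar to glycolysis and is made of muscle (Pfkm), liver (Pfkl) and platelet (Pfkp) subunits. Pfkp stood at 62.8, 59.5 and 73.3 CPM in sham, 251, 108 and 354 CPM in MIRI, and 61.7, 167 and 371 CPM in GXNI. All libraries but GXNI 1 were above sham, and Pfkp was 3.67-fold higher in MIRI (log2 change 1.87 ± 0.40 SE, edgeR adjusted p = 0.0763) and 3.36-fold higher over the 6 ischemia-reperfusion libraries (1.75 ± 0.53 SE, edgeR adjusted p = 0.0950). Pfkm stood at 830, 829 and 831 CPM in sham, 338, 754 and 379 CPM in MIRI, and 703, 503 and 369 CPM in GXNI. Every operated library was thus below sham, where the 3 animals hardly differed. The change over the 6 libraries was -0.71 ± 0.26 and was not called (edgeR adjusted p = 0.122), and in MIRI without MIRI 2 it was -1.21 ± 0.11. As a share of its sham mean, Pfkm stood at 40.7%, 90.9% and 45.6% in MIRI 1 to 3, where the summed cardiomyocyte markers stood at 68.3%, 105% and 75.0%. The 11 markers differed among themselves, in MIRI 3 from 26.3% for Pln and 42.3% for Myh6 to 224% for Actc1, and 1, 3 and 2 of them stood below Pfkm in MIRI 1 to 3. Pfkl ranged from 97.1 to 207 CPM over the operated libraries and Gpi1, the isomerase upstream, from 328 to 460 CPM, and neither was called in any of the comparisons. Reads of Pfkm and Pfkp may be shared with genes on the opposite strand, Senp1 and Pitrm1, since the strand setting of the counting is not given in the sources used here.

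The PFKFB enzymes make and break the fructose bisphosphate that activates phosphofructokinase, Pfkfb2 being the heart form and Pfkfb3 the inducible form with the highest kinase activity. Pfkfb2 stood at 46.2, 57.4 and 44.3 CPM in sham, 11.9, 22.1 and 8.40 CPM in MIRI, and 41.9, 27.0 and 9.40 CPM in GXNI. It was below sham in all 6 libraries and 3.49-fold lower in MIRI (log2 change -1.80 ± 0.34 SE, edgeR adjusted p = 0.0666), with MIRI 2 also clear of the sham range. Pfkfb3 stood at 30.7, 59.2 and 44.2 CPM in sham, 83.0, 12.3 and 101 CPM in MIRI, and 16.98, 24.2 and 132 CPM in GXNI. It was above sham in MIRI 1, MIRI 3 and GXNI 3 and below it in the other 3 libraries, so that its log2 change in MIRI was 0.56 ± 0.67 with all libraries and 1.05 ± 0.25 without MIRI 2. Pfkfb1, known from liver and muscle, went the other way, from 10.3, 10.4 and 10.4 CPM in sham to 5.90, 21.3 and 1.5 CPM in MIRI and 15.6, 3.84 and 1.68 CPM in GXNI. MIRI 2 and GXNI 1 were the only libraries above sham for this gene. Pfkfb4, which occurs in testis and tumours, ranged from 3.56 to 13.2 CPM and was not called with all libraries.

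Of the later steps, from aldolase to pyruvate kinase, phosphoglycerate mutase and enolase each have a muscle form and another form among the members, and of these 4 genes Pgam1 was the one called. Phosphoglycerate mutase has a brain form, Pgam1, and a muscle form, Pgam2. Pgam1 stood at 41.5, 35.7 and 50.2 CPM in sham, 100, 70.6 and 151 CPM in MIRI, and 39.4, 84.5 and 138 CPM in GXNI. It was 2.54-fold higher in MIRI than in sham (log2 change 1.34 ± 0.29 SE, edgeR adjusted p = 0.0767) and above the sham range in all operated libraries but GXNI 1. Pgam2 stood at 394, 404 and 423 CPM in sham, 227, 380 and 259 CPM in MIRI, and 365, 335 and 211 CPM in GXNI. All 6 were below sham, by -0.46 ± 0.20 on the log2 scale (not called, edgeR adjusted p = 0.159).

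Enolase, which forms phosphoenolpyruvate, has the widespread form Eno1 and the muscle form Eno3. Eno1 stood at 102, 114 and 131 CPM in sham, 303, 127 and 533 CPM in MIRI, and 114, 167 and 459 CPM in GXNI, so that MIRI 2 and GXNI 1 fell within the sham range. Its log2 change in MIRI was 1.48 ± 0.47 and missed the threshold (edgeR adjusted p = 0.117), and without MIRI 2 it was 1.86 ± 0.23. Eno3 stood at 884, 960 and 899 CPM in sham, 465, 867 and 577 CPM in MIRI, and 868, 607 and 514 CPM in GXNI, with all 6 below sham. Per kilobase of exon the sham levels were 526 ± 23.3 CPM for Eno3 and 21.5 ± 2.64 CPM for Eno1 (SD, n = 3), and in the MIRI group they were 366 ± 119 and 59.6 ± 37.9 CPM (SD, n = 3). The near-identical genes Eno1b and Gm4735 held few reads, at most 275 and 85 in a library where Eno1 had 12427.

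Aldolase A, encoded by Aldoa, was the most abundant aldolase by far, at 1982, 1878 and 2076 CPM in sham, 1393, 1978 and 1900 CPM in MIRI, and 1706, 1803 and 1568 CPM in GXNI. The groups overlapped and its log2 change over the 6 libraries was -0.20 ± 0.14. The other row of that symbol (ENSMUSG00000114515) held 1 to 10 reads a library and was not tested. Aldoc, the brain aldolase, held 9, 2 and 0 reads in sham, 11, 4 and 34 in MIRI, and 11, 10 and 11 in GXNI, and did not pass the filter on low counts in MIRI against sham or GXNI against sham with all libraries. Triose phosphate isomerase, Tpi1, ranged from 435 to 656 CPM in the operated libraries and from 512 to 552 CPM in sham. Phosphoglycerate kinase, Pgk1, which makes ATP, ranged from 307 to 324 CPM in sham and from 320 to 655 CPM in the operated libraries (log2 change 0.55 ± 0.24, not called, edgeR adjusted p = 0.160). Pyruvate kinase of muscle and most other tissues, Pkm, ranged from 937 to 1009 CPM in sham and from 926 to 1822 CPM in the operated libraries, and was not called.

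Gapdh, glyceraldehyde-phosphate dehydrogenase, served the study as the standard of its RT-PCR and was the most erratic member. It held 95, 3930 and 2397 reads in sham 1 to 3, 4838, 87 and 4877 in MIRI 1 to 3, and 122, 607 and 1076 in GXNI 1 to 3. The sham libraries alone therefore spanned 38.1-fold in CPM, and no comparison of groups called it with all libraries. Its exons match 103 other genes of the annotation at 95% identity or more over at least 300 bases, and together these held 1012 to 1954 reads a library. Reads that fit several places may be lost or moved in the counting, and how such reads were handled is not given in the sources used here. The matching genes held 1191 reads in sham 1 and 1441 in sham 2, where Gapdh held 95 and 3930. The levels of Gapdh are uncertain, and the cause of their spread between libraries was not tested. For Mpc1 too, reads may be lost or moved. Its copy Mpc1-ps, 99.7% identical over 330 bases, held 2397 to 3879 reads where Mpc1 held 807 to 1338.

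**Figure D4:**
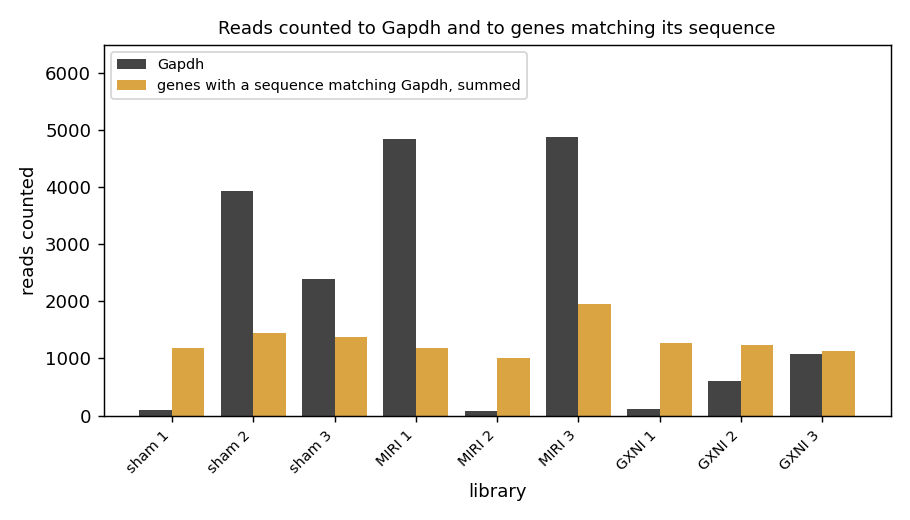
Bars give the reads counted in each library to Gapdh (dark) and to the 103 genes whose transcripts match it, summed (light). Gapdh falls under 130 reads in sham 1, MIRI 2 and GXNI 1, while the matching genes stay between 1012 and 1954.

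Lactate dehydrogenase is a tetramer of A subunits, encoded by Ldha and typical of glycolytic tissue, and B subunits, encoded by Ldhb and typical of the heart. Ldha stood at 621, 634 and 638 CPM in sham, 721, 819 and 956 CPM in MIRI, and 683, 672 and 897 CPM in GXNI. All 6 operated libraries were above sham, MIRI 2 and GXNI 1 included, by 0.33 ± 0.14 on the log2 scale (not called, edgeR adjusted p = 0.161). Ldhb stood at 1087, 1203 and 1119 CPM in sham, 698, 1071 and 744 CPM in MIRI, and 990, 808 and 722 CPM in GXNI. All 6 were below sham, by -0.44 ± 0.16 (not called, edgeR adjusted p = 0.118). Per kilobase of exon, Ldhb was at 724 ± 38.2 CPM and Ldha at 191 ± 2.63 CPM in sham (SD, n = 3), and at 534 ± 130 and 251 ± 35.7 CPM in MIRI.

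Lactate leaves or enters through monocarboxylate transporters, of which MCT4, encoded by Slc16a3, is the exporter of glycolytic cells and MCT1, encoded by Slc16a1, works both ways. Slc16a3 showed the largest change of the 38 members, from 4.56, 3.12 and 5.97 CPM in sham to 90.9, 6.59 and 182 CPM in MIRI and 9.19, 25.8 and 184 CPM in GXNI. All 6 operated libraries were above sham, but they differed from each other 27.9-fold. The gene was 20.6-fold higher in MIRI (log2 change 4.37 ± 1.06 SE, edgeR adjusted p = 0.0857), 16.2-fold higher in GXNI (4.02 ± 1.11 SE, edgeR adjusted p = 0.219) and 18.2-fold higher over the 6 libraries (4.19 ± 1.22 SE, edgeR adjusted p = 0.0905) than in sham. Without MIRI 2 its log2 change in MIRI was 4.91 ± 0.36. The libraries with the highest Slc16a3, Slc2a1, Pfkp and Eno1 (MIRI 1, MIRI 3 and GXNI 3) were also those with the highest neutrophil marker sums and with cardiomyocyte sums of 68.3%, 75.0% and 71.7% of the sham mean. The part of cell composition in these levels was not tested. Slc16a1 stood at 150, 218 and 204 CPM in sham, 260, 348 and 228 CPM in MIRI, and 202, 220 and 243 CPM in GXNI, and was not called.

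Pyruvate crosses the inner mitochondrial membrane through a carrier of Mpc1 and Mpc2, and the PDH complex consists of the decarboxylase (Pdha1 and Pdhb), the acetyltransferase (Dlat) and its binding protein (Pdhx). None of these 6 genes was called with all libraries. Their log2 changes in ischemia-reperfusion against sham were all below 0, from -0.32 ± 0.16 for Pdhb to -0.16 ± 0.18 for Mpc2. The lowest value was in GXNI 3 or MIRI 3 for most of them, as for Pdha1, which ranged from 826 to 929 CPM in sham and from 545 (MIRI 3) to 975 CPM (MIRI 2) in the operated libraries. MIRI 2 stood above the sham range for Mpc2, Pdha1, Dlat and Pdhx. Without MIRI 2, Dlat fell in MIRI (log2 change -0.61 ± 0.10, edgeR adjusted p = 0.00266), and Pdha1 and Pdhb changed by -0.52 ± 0.13 and -0.54 ± 0.12, which is under the fold of 1.5.

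Of the PDH kinases, Pdk2 is among the forms of the resting heart, Pdk4 is induced by fasting and fatty acids, Pdk1 by hypoxia, and Pdk3 is scarce in most tissues. Pdk2 stood at 414, 391 and 432 CPM in sham, 178, 371 and 152 CPM in MIRI, and 372, 281 and 126 CPM in GXNI. All 6 were below sham, MIRI 2 and GXNI 1 by little, and the log2 change over them was -0.74 ± 0.34 (not called, edgeR adjusted p = 0.174). Pdk3 stood at 2.15, 2.33 and 2.18 CPM in sham, 4.73, 2.55 and 7.12 CPM in MIRI, and 3.25, 3.10 and 6.33 CPM in GXNI. All 6 were above sham, by 1.02 ± 0.35 on the log2 scale (not called, edgeR adjusted p = 0.110). Pdk4 stood at 1904, 234 and 1286 CPM in sham, a spread of 8.16-fold among the sham mice, and ranged from 384 to 1039 CPM in the operated libraries. With this spread its log2 change of -0.79 ± 0.51 could not be told from the variation between animals. Pdk1 was among the least variable members, at 171 to 193 CPM in sham and 139 to 178 CPM in the operated libraries. Per kilobase of exon the order in sham was Pdk4 (325 ± 241 CPM), Pdk2 (130 ± 6.49), Pdk1 (22.9 ± 1.63) and Pdk3 (0.867 ± 0.0370), where Pdk4 and Pdk2 did not differ beyond the SD of Pdk4.

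Of the phosphatases, Pdp2 is the insulin-sensitive form and Pdp1 the calcium-activated form of muscle. Pdp2 stood at 34.2, 31.4 and 44.5 CPM in sham, 6.84, 21.4 and 5.27 CPM in MIRI, and 19.3, 11.0 and 4.24 CPM in GXNI. It was below sham in all 6 libraries and 3.24-fold lower over them (log2 change -1.70 ± 0.47 SE, edgeR adjusted p = 0.0878). As a share of its sham mean it stood at 18.6%, 58.4%, 14.4%, 52.5%, 30.1% and 11.5% in MIRI 1 to 3 and GXNI 1 to 3. The lowest of the 11 cardiomyocyte markers stood at 35.1% (Pln), 82.5% (Ckm), 26.3% (Pln), 72.9% (Actc1), 41.1% (Pln) and 25.1% (Pln) in the same order. The part of cardiomyocyte RNA in the level of Pdp2 was not tested. Pdp1 ranged from 29.96 to 44.3 CPM in sham and from 23.97 to 39.2 CPM in the operated libraries and was not called.

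Ratios of 2 isoenzymes within a library do not depend on scaling, and 9 were compared between sham and the 6 ischemia-reperfusion libraries with a two-sided exact permutation test on log2 values, for which 84 relabellings allow a p of 0.0238 at the least. The ratio of Ldha to Ldhb counts was 0.571, 0.527 and 0.570 in sham, 1.03, 0.764 and 1.29 in MIRI, and 0.690, 0.831 and 1.24 in GXNI. It was above sham in 6 of 6 libraries and on average 0.77 log2 units higher (exact p = 0.0238, adjusted over the 9 ratios 0.0612). The ratio of Pdk3 to Pdk2 was 0.00519, 0.00595 and 0.00505 in sham, 0.0266, 0.00688 and 0.0469 in MIRI, and 0.00874, 0.0110 and 0.0503 in GXNI, again above sham in 6 of 6 (1.78 log2 units, exact p = 0.0238, adjusted 0.0612).

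The ratios Slc2a1/Slc2a4, Pfkp/Pfkm, Pgam1/Pgam2, Eno1/Eno3 and Aldoc/Aldoa were each above all of sham in 5 of the 6 libraries (exact p = 0.0476, adjusted 0.0612). The mean differences of the first 4 were 3.02, 2.27, 1.57 and 1.58 log2 units. Pfkp/Pfkm, for example, was 0.0757, 0.0718 and 0.0882 in sham, 0.745, 0.144 and 0.934 in MIRI, and 0.0877, 0.332 and 1.01 in GXNI, with GXNI 1 the library within the sham range. The exception was MIRI 2 for Aldoc/Aldoa and GXNI 1 for the other 4. Aldoc/Aldoa rests on at most 34 Aldoc reads a library, and since sham 3 held 0 its size and p depend on the 0.5 added to each count, so that no difference is given. Hk1/Hk2 (0.36 log2 units, exact p = 0.119) and Slc16a3/Slc16a1 (2.83 log2 units, exact p = 0.0952) did not reach p = 0.05. In all 9 pairs the mean ratio of the gene named first to the other was higher after ischemia-reperfusion, and no adjusted p was below 0.05. The pairs and their order were set among members chosen with earlier results of these data known. Neither the shared direction nor the p values of the ratios are therefore an independent test. Without both MIRI 2 and GXNI 3, 3 libraries against 4 cannot give a p under 0.0571.

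**Figure D5:**
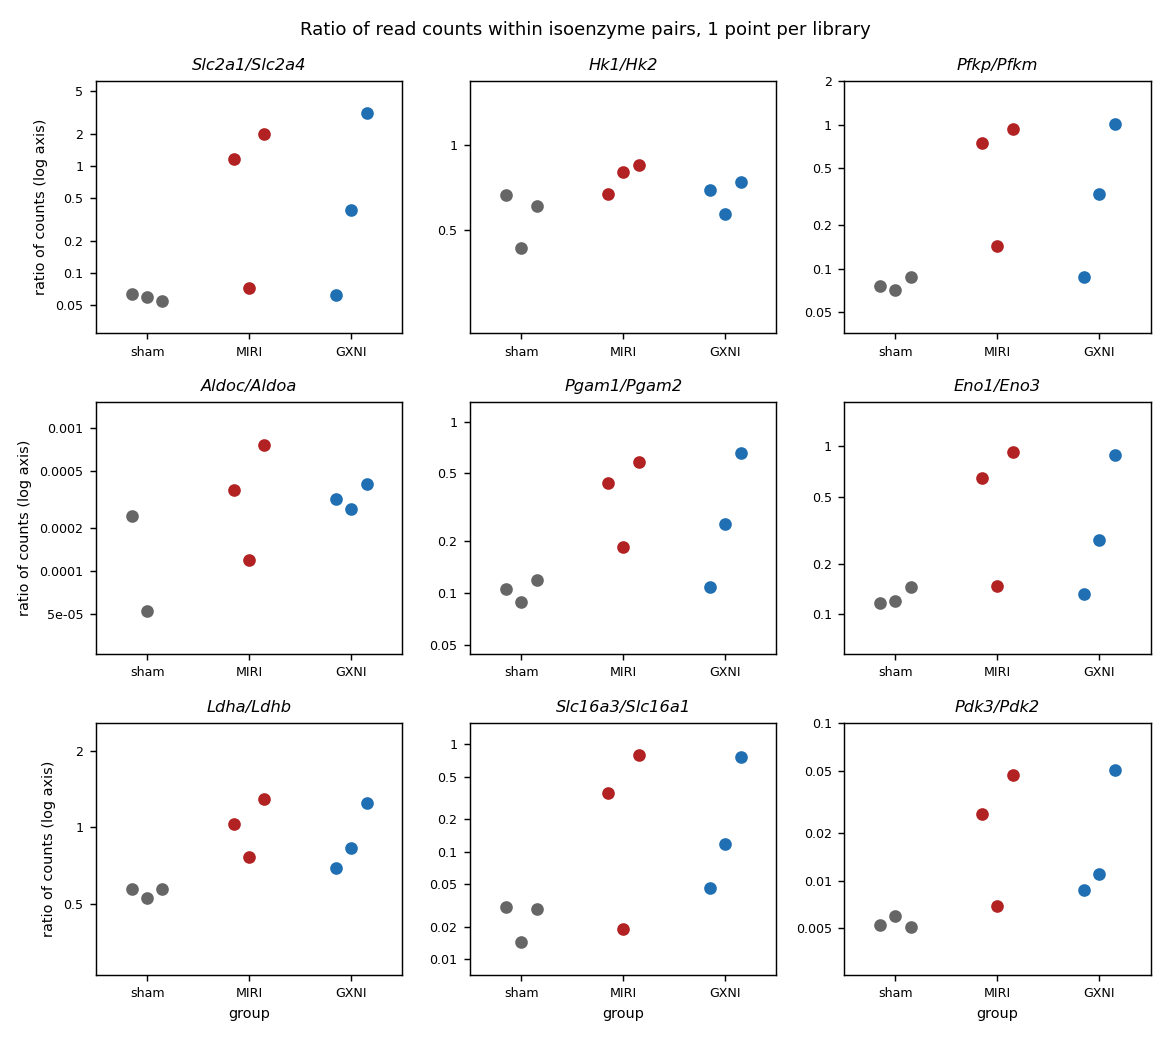
Each panel gives, on a log axis, the ratio of read counts of 2 isoenzyme genes in each library of the 3 groups. Sham 3 has no Aldoc read and is left out of that panel. Ldha/Ldhb and Pdk3/Pdk2 are above all sham libraries in 6 of 6 operated libraries, and Hk1/Hk2 overlaps most.

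The effect of the drug was addressed by GXNI against MIRI. As labelled, 0 of 38 members were called in either direction by edgeR, 0 had an unadjusted p under 0.05, and DESeq2 likewise gave 0 calls and 0 members under 0.05, where edgeR called 0.0% of all genes higher and 0.0203% lower. At the same fold and p the study reported far more genes for this contrast, so its comparison was not reproduced here. The absence of calls as labelled therefore does not show that the drug had no effect on the members. The SE of the log2 change ranged from 0.17 for Pdk1 to 1.32 for Slc16a3 with a median of 0.33, and was under 0.5 for 26 of the 38 members, among them Ldha (-0.14 ± 0.21), Ldhb (0.01 ± 0.25) and Pkm (-0.17 ± 0.31). For others it was larger, with a log2 change of -0.12 ± 1.10 for Slc2a1, -0.34 ± 1.32 for Slc16a3, -0.24 ± 0.68 for Pfkp, 0.89 ± 0.59 for Pfkfb2 and 0.05 ± 0.70 for Pdp2, and changes of 1.5-fold in these genes were not detectable. The median over the members was -0.12 and over all genes -0.00027. Without MIRI 2 and GXNI 3, which leaves 2 libraries against 2, the comparison is a description and no test of the drug, since both were left out for their likeness to the other group, and that choice by itself favours a separation. Pfkfb2, Pdk2 and Pdp2 were past the call in that subset as higher in GXNI and Eno1, Pfkfb3, Gapdh and Slc16a3 as lower, where 1.52% and 3.47% of all genes were called. Slc16a3 was then -2.95 ± 0.56, Pfkfb3 -2.15 ± 0.24, Eno1 -1.56 ± 0.33, Pfkfb2 1.77 ± 0.30, Pdp2 1.34 ± 0.34 and Pdk2 0.999 ± 0.22 on the log2 scale. No member passed an adjusted threshold of 0.05 in edgeR there, the smallest value being 0.182. In this subset 5 of 12 neutrophil markers were called lower as well, and the part of cell composition was not tested.

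Neighbouring pathways were counted from lists of genes. Of all genes tested in MIRI against sham, 6.15% were called higher and 2.82% lower, beside which these counts are to be read. In MIRI against sham, of 13 glycogen genes, Gbe1, the branching enzyme (0.96 ± 0.20, edgeR adjusted p = 0.0759), and Stbd1, which binds glycogen for lysosomal breakdown (1.23 ± 0.22, edgeR adjusted p = 0.0662), were called higher and 0 lower. Stbd1 was at 7.57, 6.88 and 8.04 CPM in sham and between 12.1 and 22.0 CPM in all 6 operated libraries, and was called in GXNI against sham (1.02 ± 0.19) and over the 6 libraries (1.12 ± 0.20) too. Of 7 tested genes of gluconeogenesis and pyruvate entry, Pck2, the mitochondrial phosphoenolpyruvate carboxykinase, was called lower (-0.66 ± 0.14, edgeR adjusted p = 0.0759), from 18.7, 19.3 and 19.3 CPM in sham to between 10.7 and 15.2 CPM. Of 8 genes of the pentose phosphate pathway, G6pdx, its entry enzyme, was called higher (0.91 ± 0.25, edgeR adjusted p = 0.0981), and of 10 redox shuttle genes Gpd1, the cytosolic glycerol-phosphate dehydrogenase, was (0.64 ± 0.14, edgeR adjusted p = 0.0784). Stbd1 and Pck2 were thus clear of sham in MIRI 2 and GXNI 1 also. So was Gpd1, at 135 and 90.0 CPM in these libraries against 70.8, 72.0 and 87.3 CPM in sham. G6pdx was above sham there too, at 10.6 and 9.49 CPM against at most 9.46 CPM. Gbe1 was above sham in MIRI 2 (69.6 CPM) and below it in GXNI 1 (35.7 CPM), where sham held 39.5 to 44.3 CPM. These counts too depended on MIRI 2. Without it the calls higher and lower in MIRI against sham were 3 and 6 for glycogen, 1 and 3 for gluconeogenesis and pyruvate entry, 4 and 0 for the pentose phosphate pathway, and 0 and 4 for the redox shuttles. Of all genes, 16.9% were called higher and 13.3% lower without MIRI 2. Gbe1 (1.05 ± 0.19), Stbd1 (1.22 ± 0.23), Pck2 (-0.62 ± 0.14) and G6pdx (1.12 ± 0.16) were called in that subset as well, whereas Gpd1 (0.55 ± 0.13) came under 1.5-fold. Among the 6 glycogen genes lower without MIRI 2 was Pygm, the muscle phosphorylase (-1.17 ± 0.11), and among the 3 higher was Pygl, the liver form (2.75 ± 0.15). The 4 lower redox genes were Got1, Slc25a12, Gpd1l and Slc25a13. In GXNI against MIRI, 0 genes of these 4 lists were called with all libraries, as were 0.0% of all genes higher and 0.0203% lower. Without MIRI 2 and GXNI 3, Pygm was past the call as higher in GXNI and Pygl and Tkt as lower, with the same limit as above. Of all genes, 1.52% and 3.47% were called in that subset.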

How the data were processed

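The data were read counts by gene from the hearts of 9 mice. Per the study's methods, the authors discarded reads with adapter, undetermined bases or low quality, aligned the remainder with HISAT2 and assigned them to genes with featureCounts of Subread. The deposited counts are whole numbers without normalization. Per the labels, the submitters' processing notes name mm10 and DESeq2. Versions and the strand setting are not given in the sources used here. GENCODE M21 (GRCm38) gave a symbol for 54409 of 54532 identifiers. 0 columns of other samples were used, and 0 rows named no gene.

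All genes entered each fit, on the libraries compared, with edgeR 4.0.16 (R 4.3.3, filterByExpr, TMM, quasi-likelihood F test, no covariates). Ratios of counts, with 0.5 added to each, were tested with scipy 1.17.1. Transcripts matching a member were found with blastn 2.17.0 (95% identity, 300 bases). Alternatives were DESeq2 1.42.0, RLE scaling, mitochondrial genes left out, no filter, a shared fit of 9 libraries, an adjusted threshold of 0.05, the replicate number as a block, and libraries left out. Scripts were tested on simulated counts. The members and lists were chosen with earlier results of these data known, and the ratio pairs were set among these members. The result of 1 other list is not reported here. Every member is named, and those called in a comparison or paired in a ratio are given by library. Depth sets a floor of 3 counts, 0.132 to 0.175 CPM, for counting error only.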

Additional observations from a re-analysis of the deposited data

How the results depend on the processing

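Called members, higher and lower, numbered 4 and 1 for MIRI versus sham, 0 and 0 for GXNI versus MIRI, 1 and 1 for GXNI versus sham, and 2 and 1 for ischemia-reperfusion versus sham. RLE scaling or leaving out mitochondrial genes gave the same numbers. For the first, the third and the fourth of these, DESeq2 gave 7 and 2, 2 and 2, and 6 and 3, no filter gave 7 and 2, 3 and 2, and 4 and 3, and an adjusted threshold of 0.05 gave 0 throughout. Of all genes, DESeq2 called 1491 and 760 of 27898, 994 and 407 of 27956, and 1519 and 677 of 29338. Without the filter these were 1603 and 803 of 27901, 999 and 426 of 27966, and 1228 and 656 of 29344. With 9 libraries in 1 fit, 0 and 1 were called for MIRI and 0 and 0 for GXNI versus sham, and with 3 groups in 1 fit 0 and 1 for ischemia-reperfusion. Of all 15207 genes, 535 and 265, 299 and 142, and 622 and 380 were called in these fits. None of these alternatives called a member for GXNI versus MIRI. Leaving out 1 library gave 0 to 10 higher and 1 to 9 lower for MIRI versus sham, 0 to 5 and 0 to 5 for GXNI versus sham, 0 to 4 and 0 to 3 for ischemia-reperfusion, and 0 for GXNI versus MIRI. Of all genes, 340 to 2571 and 174 to 2021 were then called for MIRI versus sham. For GXNI versus sham these were 83 to 1603 and 90 to 1062, and for ischemia-reperfusion 254 to 1466 and 209 to 858. Without MIRI 2 and GXNI 3, 3 and 4 were called for GXNI versus MIRI and 2 and 2 for ischemia-reperfusion. Of all genes, 228 and 520 of 14984, and 989 and 485 of 14990, were called there. Of the 9 ratios, 7 had p of at most 0.05, 0 to 6 with 1 library left out (0 without any 1 sham library, where 0.0714 is the smallest p possible) and 0 without MIRI 2 and GXNI 3. Changes of direction concerned log2 changes that were not called with all libraries. With 1 library left out, those of GXNI versus MIRI ranged from -1.82 to 0.64 for Slc2a1, -2.40 to 0.58 for Slc16a3, -1.66 to 0.28 for Pfkfb3, -1.05 to 0.18 for Pfkp, -1.18 to 0.20 for Eno1, -0.20 to 0.67 for Pdk2 and -0.54 to 0.94 for Pdp2. Those of MIRI versus sham ranged from -0.13 to 1.14 for Gapdh, -1.50 to 0.37 for Pfkfb1, -0.19 to 0.067 for Gpi1 and -0.070 to 0.22 for Tpi1. Those of GXNI versus sham ranged from -1.11 (called, without GXNI 3) to 0.82 for Pfkfb3, -1.03 to 0.037 for Pdk4, -0.16 to 0.43 for Pfkl, -0.16 to 0.31 for Hk2 and -0.0071 to 0.57 for Hk1. Those of ischemia-reperfusion ranged from -0.84 to 0.43 for Gapdh, which stood at 0.12 without MIRI 2 and GXNI 3, and from -0.079 to 0.042 for Tpi1. The cause was not tested.

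With the replicate block, 3 and 1, 0 and 0, 1 and 1, and 3 and 3 members were called, and Pfkfb3 turned to -0.22 in GXNI and -0.021 in ischemia-reperfusion versus sham. Of all genes, 698 and 367 of 14644, 2 and 1 of 14762, 342 and 231 of 14695, and 901 and 600 of 15207 were called with the block. Same-numbered libraries deviated together with correlations from -0.445 to 0.701, not above 0.1 in every pair. MIRI 3 and GXNI 3, which gave 0.701, also lay together on the leading principal component. These correlations therefore cannot show whether same-numbered animals were handled together, and the labels give them only a shared number. With 3 animals a group, changes under 1.5-fold and genes of few reads such as Aldoc and Pdk3 were poorly resolved.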
